A study of Mus musculus with 3 samples.

Results

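The SPARC, SMOC and follistatin-like family comprises the 8 genes Sparc, Sparcl1, Smoc1, Smoc2, Fstl1, Spock1, Spock2 and Spock3. They were taken by symbol from the gene tables of all 3 libraries and joined by gene identifier, and all 8 were found among the 21446 genes that the libraries share. Their levels are described here in mouse molar cells sorted for the Pthrp-mCherry reporter, in which a knock-in allele makes cells that express parathyroid hormone-related protein fluoresce red. The mice had a C57BL/6 background and both sexes were used, all samples carried the same Pthrp-mCherry knock-in, and cells pooled from mandibular molars gave 1 library each at postnatal day 15 (P15), P25 and 8 weeks. The sort keeps what carries the reporter, namely cementoblasts and precursors according to the labels, together with whatever else passes the gate. The age of the animals, the pool of animals and the library therefore cannot be told apart, and no difference between ages was tested.

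Proteins of this family are secreted and share a follistatin-like domain, most of them with a calcium-binding domain beside it. They are matricellular: they bind collagen, growth factors or proteases outside the cell and adjust the matrix without forming its main scaffold. SPARC, also called osteonectin, binds collagen and calcium and is one of the abundant non-collagenous proteins of bone, dentin and cementum. SPARCL1, or hevin, is its nearest relative. SMOC1 and SMOC2 are modular calcium-binding proteins known for their action on BMP and growth factor signaling. FSTL1 is a glycoprotein of mesenchymal cells, and SPOCK1, SPOCK2 and SPOCK3, the testicans, are proteoglycans best known from the nervous system that influence matrix metalloproteases. All members lay on separate chromosomes, and the annotation of GRCm38 placed no other gene over any of them, on either strand. Sparc spans 55394500 to 55423183 on the minus strand of chromosome 11, and Spock1 spans 57421195 to 57908332 on the minus strand of chromosome 13. Smoc2 spans 14279506 to 14404790 on chromosome 17. Sparcl1 spans 104079111 to 104113733 on chromosome 5, 185 kb from Ibsp, one of the genes used below to choose cells.

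The libraries held 5192 to 12926 cells and 46234378 to 188157997 unique molecular identifiers (UMIs, counts of captured RNA molecules). Medians of 14253.5, 15834 and 8712.5 UMIs per cell were found in the P15, P25 and 8-week libraries. P25 differed in software version and gene reference as well as in age, and these cannot be told apart. Between 13 and 26 cell barcodes were shared by any pair of libraries, and these cells were kept. Cells were gated by the UMIs of 7 genes. Ibsp encodes bone sialoprotein, Ifitm5 a membrane protein of mineralizing osteoblasts, Pappa2 a protease of insulin-like growth factor binding proteins, Hand2 a transcription factor, Rgs5 a regulator of G protein signaling in mural cells, Krt14 a basal keratin and Ptprc the leukocyte antigen CD45. A gate needed 2 to 10 UMIs of its gene and at least 2 times the gene's share of all UMIs in that library. Cells that passed gates of several compartments (stromal, mural, epithelial and immune) were left out. Stromal cells went to the first gate passed in the order Ifitm5, Ibsp, Pappa2 and Hand2. The gates took 33.5%, 38.6% and 29.7% of all cells in the P15, P25 and 8-week libraries. In that order they held 880, 1030 and 637 cells for Ibsp, and 632, 728 and 270 for Ifitm5. The Hand2 gate held 238, 682 and 485 cells and the Krt14 gate 1037, 773 and 113. The other gates emptied with age: Pappa2 held 561, 31 and 14 cells, Ptprc 796, 207 and 19, and Rgs5 190, 11 and 4. Sums from fewer than 20 cells were not used. All 6 mural, 5 epithelial and 5 immune markers were highest in the Rgs5, Krt14 and Ptprc gates, and 4 or 5 of 5 markers of periapical cells in the Hand2 gate. The study lists these periapical markers for a cluster that Hand2 also marks in these data. Their count is therefore no independent check of that gate. Of the study's markers of its cementoblast subtypes, 4 or 5 of 6 (alpha) were highest in the Ibsp gate. In the Ifitm5 gate 4 or 5 of 5 (beta) were highest. Ibsp and Ifitm5 are themselves among the study's markers of alpha and beta, so these counts are no independent check either. Dmp1 is in both lists and was highest in the Ifitm5 gate in each library. For the Pappa2 gate 2 of 2 markers of the alveolar-type precursor were highest at P15 and 1 of 2 at P25, so this gate is called by its gene. The summed immune list was 2.86 to 49.7 CPM in the stromal gates against 5931 and 6111 CPM in the Ptprc gate at P15 and P25.

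Levels are the UMIs of a gene as CPM (counts scaled to the total of all UMIs summed in the gate), with 95% Poisson intervals that cover counting error only. A 3' tag count gives no level per transcript length, so levels are compared between gates and libraries and not between genes. The immune gate serves as a measure of RNA that was not made in the cell: immune cells are thought to lack most members, and a level at or below theirs is read here as background.

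**Figure D1:**
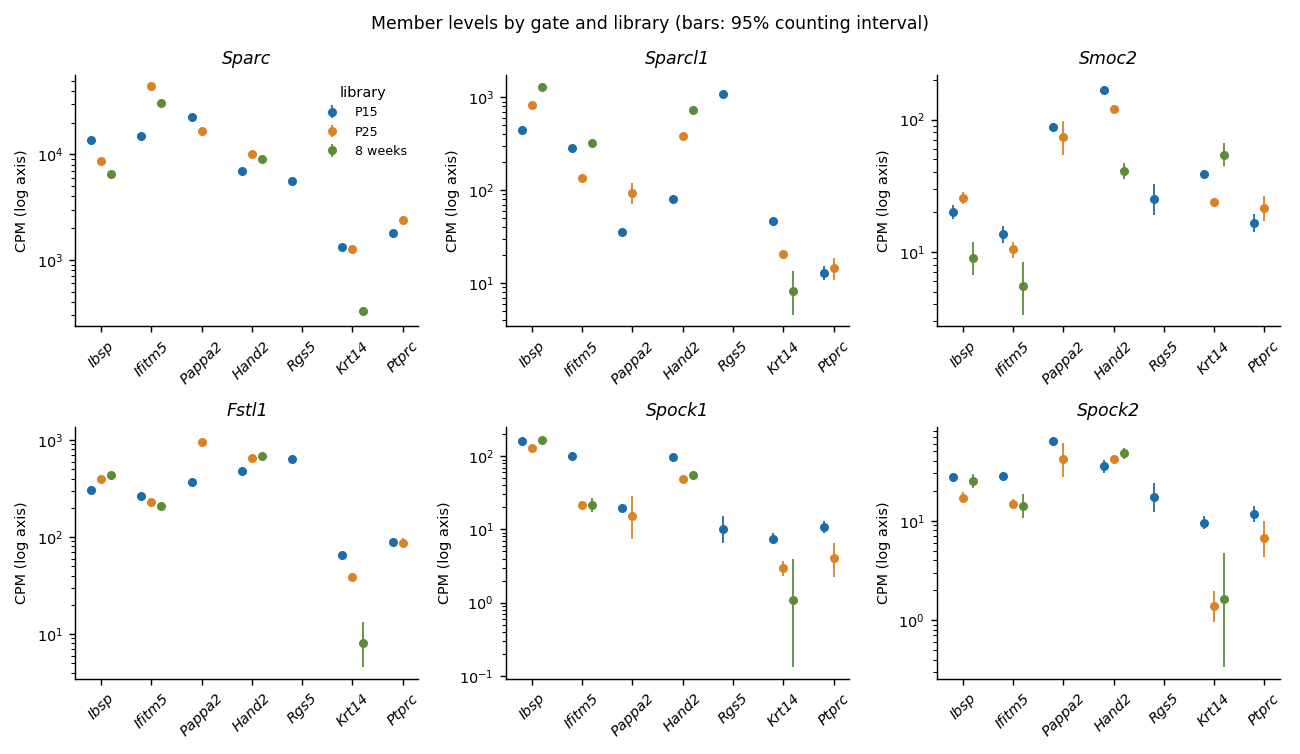
Level in CPM (log axis) of the 6 members that reached 50 CPM in a gate, by gate, with 1 point per library (blue P15, orange P25, green 8 weeks) and bars for the 95% counting interval. By the mean over libraries Sparc was highest in the Ifitm5 gate (14979 to 44537 CPM) and Smoc2 in the Hand2 gate, although at P15 Sparc was higher in the Pappa2 gate and at 8 weeks Smoc2 was higher in the Krt14 gate. Spock1 was highest in the Ibsp gate in each library; sums of under 20 cells are not drawn.

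Sparc had its highest mean level in the Ifitm5 gate, at 30084 ± 14790 CPM (SD, n = 3 libraries). The levels there were 14979 CPM (P15), 44537 (P25) and 30737 (8 weeks). The Pappa2 gate followed with 22818 CPM at P15 and 16614 at P25. The Ibsp gate had 13839, 8594 and 6473 CPM, and the Hand2 gate 6938, 10187 and 9128 CPM. The summed Ifitm5 level thus lay above the Ibsp and Hand2 levels of the same library each time, and at P15 its value lay below that of the Pappa2 gate. Per cell, the P15 medians of the Ifitm5 and Ibsp gates were close, at 11697 and 11900 CPM. At P25 they were 38131 and 5067 CPM, and at 8 weeks 19788 and 4882 CPM. Across libraries the summed Ibsp and Hand2 ranges overlapped, and these gates were not tested against each other. Within a library Ibsp lay above Hand2 at P15 and below it at P25 and 8 weeks. The Rgs5 gate, with 1 usable library, had 5644 CPM at P15. Cells in no gate, most of each library, held 9357, 18918 and 13087 CPM. That was above the Ibsp and Hand2 gates at P25 and 8 weeks. The Krt14 gate had 1319 and 1278 CPM at P15 and P25, below the Ptprc gate at 1815 and 2399 CPM. These summed levels are read as background. At 8 weeks the Krt14 gate had 328 CPM, with no Ptprc sum to set beside it. Per cell, the Krt14 median was 712 CPM at P15, 285 at P25 and 392 at 8 weeks. In the Ptprc gate it was 386 CPM at P15 and 320 at P25. The reading at P15 thus rests on the summed level, and the median goes the other way.

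The 5 gates Ibsp, Ifitm5, Pappa2, Hand2 and Rgs5 were fitted together over 12 sums by the quasi-likelihood test of edgeR, and p-values were adjusted after Benjamini and Hochberg over all genes tested. A call required an adjusted p below 0.05 and a difference of more than 1 on the log2 scale. Ages served as the replicates of a gate, so the error includes differences between ages. Of the 8 members 7 passed the filter on low counts, and Spock3 did not. The Rgs5 gate gave 1 sum and was not itself tested. Against the mean of the other 4 gates, the Ifitm5 gate had 1 member called higher, Sparc, and 1 called lower, Smoc2. Over all genes tested, 4.31% were called higher and 3.47% lower in this comparison. Sparc was higher by 1.93 ± 0.35 on the log2 scale (SE, adjusted p = 0.00683, edgeR). Without the P25 library the Sparc difference was 1.39 with an adjusted p of 0.186, and without 8 weeks it was 1.90 with an adjusted p of 0.0608; over all genes the number called in this comparison was 1050, and 100 and 531 without these libraries. Scaling by total counts in place of TMM moved the median log2 fold change of all genes in this comparison from 0.00 to -0.26, and the share of calls that were higher from 55.4% to 34.9%. Sparc stayed called there at 1.61.

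The study contrasted 2 subtypes of cementoblasts, and most of their markers were highest in the Ibsp (alpha) and Ifitm5 (beta) gates. The gates separated them in part: the summed alpha markers were 2589, 2407 and 3137 CPM in the Ibsp gate and 2314, 1716 and 2803 CPM in the Ifitm5 gate. Against all other cells, the study lists Sparcl1 among the top markers of alpha, and Sparc among those of beta and of a precursor cluster. Between the Ifitm5 and Ibsp gates 0 of 7 members were called here. The background was 1.47% of genes higher and 0.771% lower. Sparc was at 1.88 ± 0.45 on the log2 scale (adjusted p = 0.0583), Spock1 at -1.56 ± 0.50 (adjusted p = 0.137) and Sparcl1 at -1.64 ± 0.72 (adjusted p = 0.286) in edgeR's test. These 3 members had an unadjusted p under 0.05, 1 higher and 2 lower, and the share of all genes at that limit was not counted. The DESeq2 Wald test called 2 of them, Sparc higher and Spock1 lower. Of all 13493 genes that test called 339 higher and 251 lower, where edgeR called 198 and 104. With the library as a block, which pairs the gates of a library, edgeR called Spock1 lower at -1.81 (adjusted p = 0.0270). Over all genes the block gave 386 called higher and 272 lower, against 198 and 104 without it. Without the P15 library edgeR called Sparc (2.59, adjusted p = 0.00717) and Spock1 (-2.48, adjusted p = 0.00139). Of all 12295 genes tested there, 388 were called higher and 337 lower, against 198 and 104 with P15.

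Relative to P15, Sparc was lower at both later ages in the Ibsp gate and higher at both in the Ifitm5 gate. In the Ibsp gate its level at 8 weeks was 0.468 times that at P15 (interval 0.462 to 0.473), and the P25 level of 8594 CPM lay between the other two. For Ifitm5 the 8-week level was 2.05 times that of P15 (2.04 to 2.07), and P25 was higher still, at 2.97 times. From P25 to 8 weeks the ratio was below 1 in both gates, at 0.753 for Ibsp and 0.690 for Ifitm5. These ratios are of summed levels. Medians per cell in the Ibsp gate were 11900, 5067 and 4882 CPM, so P25 was already close to 8 weeks. In the Ifitm5 gate they were 11697, 38131 and 19788 CPM, with 8 weeks below 2 times P15. For Hand2 the ratio at 8 weeks was 1.32. Among genes with at least 50 CPM in the Ibsp gate at P15 or 8 weeks, 2.67% were at least 2 times their P15 level and 2.71% at most 0.5 times. Of 4 members above that level, Sparcl1 was past the upper limit and Sparc past the lower. Under Ifitm5 the shares of all genes were 3.02% and 3.65%, and of 4 members Sparc was past the upper limit and Spock1 past the lower. The Ibsp gate itself was stricter at later ages, since the minimum share of Ibsp was 56.7 UMIs per 10000 (P15), 85.0 (P25) and 147 (8 weeks). For Ifitm5 the minimum share was 1.17, 2.56 and 1.60 UMIs per 10000, so that gate was strictest at P25, where its Sparc level was highest. The part of this in the P25 level was not tested. With the highest share of each gate gene asked of every library, the Sparc ratios of 8 weeks to P15 were 0.538 in the Ibsp gate and 1.92 in the Ifitm5 gate. The summed markers of the beta subtype in the Ifitm5 gate were at 9481, 18872 and 30623 CPM, above P15 at both later ages like Sparc but highest at 8 weeks, where Sparc was below its P25 level. Most of that sum was Bglap, at 7259, 15656 and 27993 CPM, and in the Ibsp gate the periapical markers were at 777, 2400 and 2925 CPM. Their part in the ratios was not tested.

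**Figure D2:**
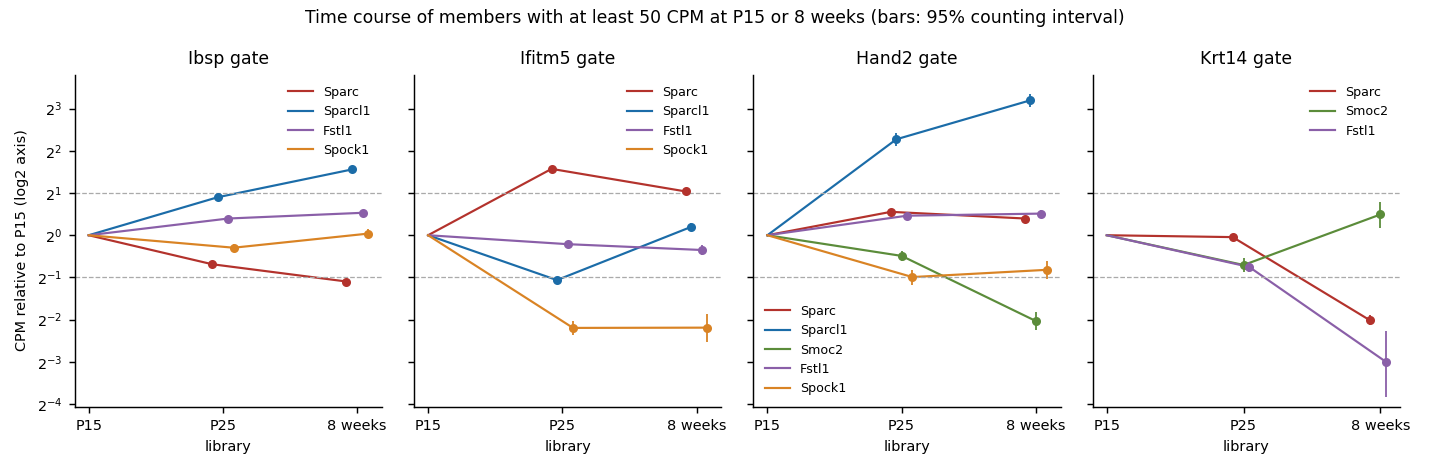
Level relative to P15 (log2 axis) at P25 and 8 weeks for members with at least 50 CPM at P15 or 8 weeks, in the Ibsp, Ifitm5, Hand2 and Krt14 gates, with 1 library per age, bars for the 95% counting interval and dashed lines at 0.5 and 2. Sparc ended at 0.468 in the Ibsp gate and 2.05 in the Ifitm5 gate, and Sparcl1 ended at 9.18 in the Hand2 gate.

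Stromal cells that passed several gates separated these patterns further. Cells that passed Ifitm5 and no other stromal gate numbered 231, 465 and 137 at P15, P25 and 8 weeks, and cells that passed Ibsp and Ifitm5 numbered 394, 255 and 133. Sparc in the Ifitm5-only cells was 15742, 50205 and 41500 CPM. In cells passing both Ibsp and Ifitm5 it was 14359, 29610 and 13696 CPM. In cells passing only Ibsp it was 13970, 11313 and 8116 CPM. At P15 these 3 kinds of cells lay within 13970 to 15742 CPM, whereas at P25 and 8 weeks the level stood in the order Ifitm5 only, both, Ibsp only. Cells passing Ibsp and Hand2 had the lowest Sparc of the stromal subsets in each library, at 5833, 5244 and 4852 CPM. Those were 27 cells at P15 and 449 and 297 at P25 and 8 weeks, so the make-up of the Ibsp gate differed with age. With cells of several stromal gates left out, the Sparc ratio of 8 weeks to P15 was 0.581 in the Ibsp gate, no longer past 0.5, and 2.64 in the Ifitm5 gate.

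**Figure D3:**
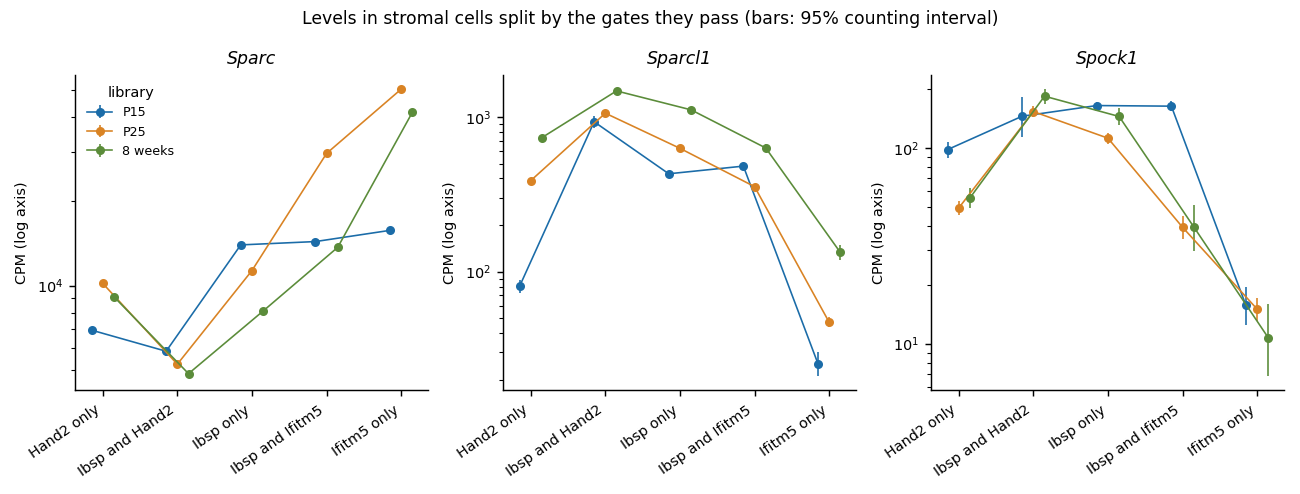
Level in CPM (log axis) of Sparc, Sparcl1 and Spock1 in stromal cells split by the gates they pass, with 1 line per library and bars for the 95% counting interval. Sparcl1 and Spock1 were low in cells passing Ifitm5 only (25.3 to 133 CPM and 10.7 to 15.7 CPM), and Sparc was highest there in each library.

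Sparcl1 had its highest level among the gates of P15 in the Rgs5 gate, at 1090 CPM. The Ibsp gate came next, with 440 CPM (P15), 820 (P25) and 1295 (8 weeks), and the Hand2 gate had 80.2, 387 and 735 CPM. The Ifitm5 gate had 284, 136 and 325 CPM, the Pappa2 gate 35.7 and 93.8 CPM, and the Krt14 and Ptprc gates 8.15 to 46.2 CPM. Ibsp lay above Hand2 and Ifitm5 in each library. Across libraries the Ibsp and Hand2 ranges overlapped, as did the Hand2 and Ifitm5 ranges, while the Ifitm5 range lay below that of Ibsp. Sparcl1 was not called in any comparison. The Ibsp gate against the other 4 gates gave 1.63 ± 0.57 on the log2 scale (edgeR adjusted p = 0.206), and no alternative called it in this comparison, with values of 1.28 to 2.18.

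In the Ibsp and Hand2 gates Sparcl1 was the member with the largest ratio of 8 weeks to P15. The ratio was 2.94 (2.84 to 3.05) in the Ibsp gate and 9.18 (8.26 to 10.2) in the Hand2 gate, where P25 lay between at 4.83 times P15. There, 6.35% of genes were at least 2 times and 3.10% at most 0.5 times their P15 level. Of 5 members with at least 50 CPM there, Sparcl1 was past the upper limit and Smoc2 past the lower. The alpha markers of the study moved with Sparcl1 in the Hand2 gate, at 195, 813 and 988 CPM in sum, and the gate's own periapical markers were at 3887, 6426 and 7424 CPM. Their part in the ratio was not tested. With 1 marker share asked of every library the ratio was 6.94 in the Hand2 gate and 2.31 in the Ibsp gate. For Ifitm5 the ratio was 1.15. Here the level came mostly from cells that also passed Ibsp, which had 481, 354 and 630 CPM, while Ifitm5-only cells had 25.3, 47.0 and 133 CPM. In those Ifitm5-only cells the 8-week level was 5.24 times that of P15 (4.25 to 6.49). Cells passing Ibsp and Hand2 had the highest Sparcl1 of the stromal subsets in each library, at 931, 1058 and 1475 CPM.

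The same order was seen in the share of cells. After each cell was thinned to 3000 UMIs, with 3455 shallower cells left out, Sparcl1 was found in 62.0%, 82.1% and 93.8% of Ibsp-gated cells at P15, P25 and 8 weeks. Before thinning these shares lay between 91.1% and 96.9%. For Hand2 the thinned shares were 15.3%, 59.3% and 79.5%, against 43.3%, 82.3% and 91.1% before thinning. The Ptprc gate had 2.31% at P15 and 2.90% at P25, so the Hand2 share at P15 already lay above that background. Median UMIs per cell were 14544, 13155 and 8754 in the Ibsp gate, 18434.5, 16271.5 and 10941 in the Hand2 gate, and 10440.5 and 15923 in the Ptprc gate.

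**Figure D4:**
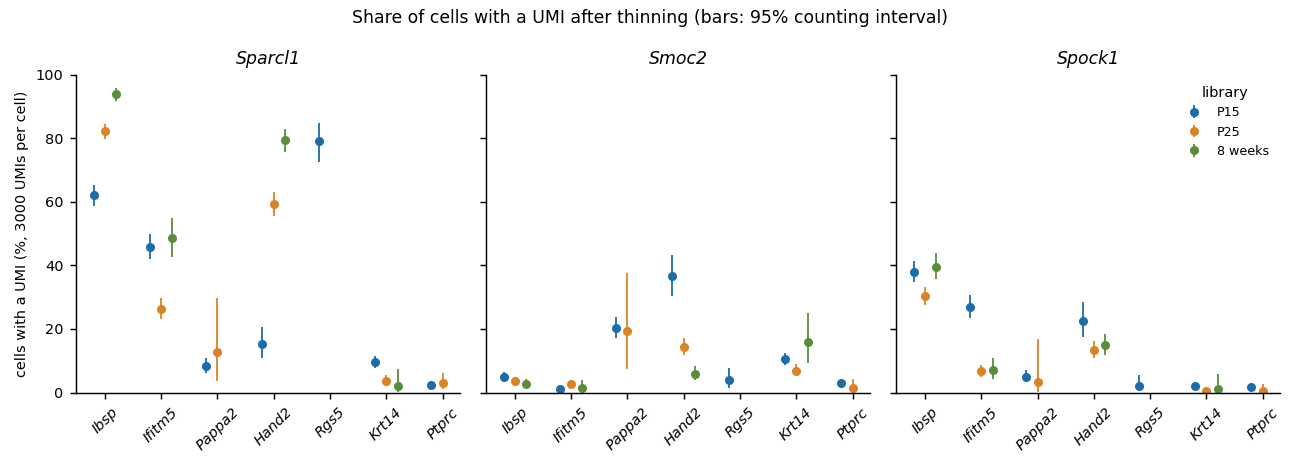
Share of cells with at least 1 UMI of Sparcl1, Smoc2 or Spock1 after thinning every cell to 3000 UMIs, by gate and library, with bars for the 95% Clopper-Pearson interval. In the Hand2 gate Sparcl1 was found in 15.3%, 59.3% and 79.5% of cells at P15, P25 and 8 weeks and Smoc2 in 36.6%, 14.2% and 5.81%; sums of under 20 cells are not drawn.

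Smoc2 had its highest mean level of the gates in the Hand2 gate. Its level there was 167 CPM (P15), 119 (P25) and 40.9 (8 weeks). Cells in no gate, which made up most of each library, held 103, 114 and 102 CPM, so the Hand2 gate stood above them at P15, close to them at P25 and below them at 8 weeks. At 8 weeks the Krt14 gate was also higher, at 54.3 CPM, and the Pappa2 gate had 88.4 and 73.8 CPM. The Ibsp gate (20.1, 25.7 and 8.93 CPM) and the Ifitm5 gate (13.6, 10.4 and 5.46 CPM) lay near or below the Ptprc gate, at 16.5 and 21.4 CPM. The Ifitm5 values at P15 and P25 are read as background, and at 8 weeks no Ptprc sum could be set beside them. The thinned share of cells with a Smoc2 UMI was 1.11% and 2.64% in the Ifitm5 gate at P15 and P25. In the Ptprc gate it was 2.86% and 1.45%. The reading at P25 thus rests on the summed level, and the share goes the other way. The Hand2 value exceeded those of the Ibsp and Ifitm5 gates in every library. Smoc2 was the 1 member called in the Hand2 gate against the other 4 gates, higher by 2.08 ± 0.42 (edgeR adjusted p = 0.0302), where 1.27% of genes were called higher and 1.42% lower. It was called lower in the Ifitm5 gate, at -1.89 ± 0.50 (edgeR adjusted p = 0.0349). The Hand2 call held in 14 of 20 alternatives: it was lost without P15 (1.72, adjusted p = 0.316) and without P25 (2.07, adjusted p = 0.277), and with lower UMI minimums, cells kept in every gate, thinned sums and at least 10 cells per sum (adjusted p of 0.0684 to 0.123). Over all genes the Hand2 comparison gave 363 calls, and 233 without P15 and 1 without P25. The other settings gave 162, 233, 171 and 372 in that order. The Ifitm5 call also held in 14 of 20: it was lost without P15 (-2.15, adjusted p = 0.165) and without P25 (-1.93, adjusted p = 0.279), and with doubled UMI minimums, cells kept in every gate, thinned sums and no low-count filter (adjusted p of 0.0534 to 0.214). Over all genes the Ifitm5 comparison gave 1050 calls, and 1172 without P15 and 100 without P25. The other settings gave 1019, 815, 572 and 984 in that order.

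Smoc2 in the Hand2 gate at 8 weeks was 0.244 times its P15 level (0.210 to 0.284), with P25 at 0.712 times. The Hand2 gate was stricter at later ages, with a minimum share of 0.233 (P15), 0.646 (P25) and 1.52 (8 weeks) UMIs per 10000. The part of this in the ratio was not tested. The thinned share of Hand2-gated cells with a Smoc2 UMI was 36.6%, 14.2% and 5.81% at P15, P25 and 8 weeks, or 73.5%, 36.2% and 14.2% without thinning. The Ptprc gate had 2.86% and 1.45% at P15 and P25. The study's precursor markers moved the same way in the Hand2 gate, at 2907, 2103 and 1741 CPM in sum, and their part was not tested. Cells passing both Ibsp and Hand2 had less Smoc2 than Hand2-only cells in each library, at 46.5, 9.69 and 2.48 CPM. In the Krt14 gate Smoc2 was at 38.6, 23.7 and 54.3 CPM, and the thinned share of cells with a UMI was 10.4%, 6.83% and 16.0%, above the Ptprc share at P15 and P25. Smoc2 and Sparcl1 were the members whose Krt14 level exceeded the Ptprc level in both libraries with a Ptprc sum. In the Krt14 gate 4.69% of genes were at least 2 times and 6.86% at most 0.5 times their P15 level. Of 3 members with at least 50 CPM, 0 were past the upper limit and Sparc and Fstl1 were past the lower, at 0.248 and 0.125. Both of these lay below the Ptprc level at P15 and P25. By the median per cell, Sparc in the Krt14 gate was at 712, 285 and 392 CPM, above 0.5 times P15 at 8 weeks.

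Smoc1 was sparse. It reached 11.9 CPM at P15 and 32.3 at P25 in the Pappa2 gate, from 142 and 21 UMIs, and stayed at or below 4.45 CPM in every other gate sum used. Cells in no gate held 4.78, 5.64 and 6.12 CPM at P15, P25 and 8 weeks. In the Ibsp gate at 8 weeks no UMI was found, which allows a level of up to 0.536 CPM (3 counts). No member was called in the Pappa2 gate against the other 4 gates by edgeR, where 0.578% of genes were called higher and 0.148% lower. At an unadjusted p under 0.05 in edgeR there were 5 members, 3 higher and 2 lower. The share of all genes at that limit was not counted, so the number is not read as a result about the members. Smoc1 had the largest of these differences, 3.47 ± 0.77 on the log2 scale (edgeR adjusted p = 0.0722), Spock2 was at 1.18 ± 0.24 (adjusted p = 0.0574) and Smoc2 at 1.60 ± 0.49 (adjusted p = 0.199). Sparcl1 was at -3.20 ± 0.88 (adjusted p = 0.155) and Spock1 at -1.36 ± 0.59 (adjusted p = 0.400) in the same edgeR fit. The DESeq2 Wald test called 4 of them, Smoc1, Smoc2 and Spock2 higher and Sparcl1 lower. Of all 13493 genes that test called 209 higher and 93 lower, where edgeR without a block called 78 and 20. With the library as a block, edgeR called Smoc2 higher at 1.38 (adjusted p = 0.00603) and Spock2 higher at 1.19 (adjusted p = 0.0377). Over all genes the block gave 150 called higher and 45 lower. The P25 sum of this gate rested on 31 cells.

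**Figure D5:**
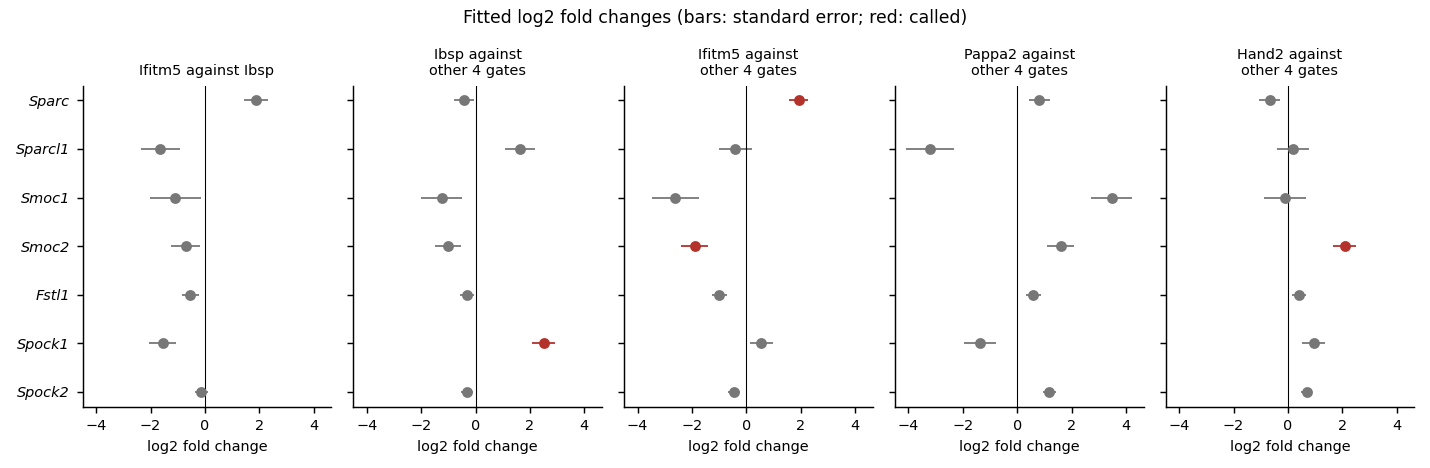
Fitted log2 fold changes of the 7 members tested, in 5 comparisons of gates, with bars for the standard error and red for members called (adjusted p below 0.05 and more than 1 on the log2 scale). Spock1 was called higher in the Ibsp gate, Sparc higher and Smoc2 lower in the Ifitm5 gate and Smoc2 higher in the Hand2 gate.

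Fstl1 was spread over all stromal and mural cells. It had 640 CPM in the Rgs5 gate at P15, 367 and 964 in the Pappa2 gate, and 475, 654 and 677 in the Hand2 gate. The Ibsp gate had 302, 398 and 437 CPM and the Ifitm5 gate 264, 228 and 207 CPM. Hand2 exceeded Ibsp and Ibsp exceeded Ifitm5 in each library. Fstl1 in the Krt14 gate, at 65.2, 38.8 and 8.15 CPM, lay below the Ptprc gate, at 89.9 and 87.5 CPM. Its difference in the Ifitm5 gate against the other 4 gates was -0.999 ± 0.27 on the log2 scale (edgeR adjusted p = 0.0362), just inside the limit on size, and it was not called. With the library as a block it was -1.04 (edgeR adjusted p = 0.00785) and called lower, and without P15 it was -1.25 (adjusted p = 0.00400) and called lower. Over all genes these fits gave 1379 and 1172 calls, against 1050. The ratio of 8 weeks to P15 was 1.45 in the Ibsp gate, 1.43 in the Hand2 gate and 0.785 in the Ifitm5 gate.

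Spock1 had its highest level of the gates in the Ibsp gate in each library. It had 160 CPM (P15), 131 (P25) and 165 (8 weeks) there, with a mean of 152 ± 18.5 CPM (SD, n = 3 libraries). The Hand2 gate had 98.1, 49.4 and 55.6 CPM and the Ifitm5 gate 99.7, 21.8 and 21.9 CPM. The lowest Ibsp value thus lay above the highest value of any other gate. Cells in no gate held 55.9, 46.8 and 68.0 CPM, above the Hand2 gate at 8 weeks and below it at P15 and P25. The Pappa2 gate had 19.6 and 15.4 CPM, and the Rgs5 gate, at 10.2 CPM, lay below the 10.7 CPM of the Ptprc gate at P15. Spock1 was the 1 member called in the Ibsp gate against the other 4 gates, higher by 2.50 ± 0.41 on the log2 scale (edgeR adjusted p = 0.0243), where 0.934% of genes were called higher and 0.237% lower. The adjusted p was 0.349 without P25 at a difference of 2.41, and 0.152 without 8 weeks at 2.34. It was also not called without the Rgs5 and Pappa2 sums (1.38, edgeR adjusted p = 0.217) or with lower UMI minimums (1.62, adjusted p = 0.113). Over all genes the calls in this comparison numbered 158, and 5 without P25 and 12 without 8 weeks. They numbered 24 without the Rgs5 and Pappa2 sums and 215 with lower minimums.

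In the Ifitm5 gate Spock1 at 8 weeks was 0.219 times its P15 level (0.173 to 0.275), and P25 was 0.218 times. In cells passing both Ibsp and Ifitm5 it was 164, 39.3 and 39.5 CPM. In cells passing only Ifitm5 it was between 10.7 and 15.7 CPM, with a ratio of 8 weeks to P15 of 0.683 (0.414 to 1.09), so the P15 level of the gate came mostly from cells that also passed Ibsp. The summed odontoblast markers in the Ifitm5 gate stood at 121, 65.7 and 44.3 CPM in the same libraries, and their part in the ratio was not tested. In cells passing only Ibsp, Spock1 was 165, 112 and 145 CPM, and in the Ibsp gate as a whole the ratio of 8 weeks to P15 was 1.03 (0.949 to 1.11). The thinned share of cells with a Spock1 UMI was 37.9%, 30.4% and 39.6% in the Ibsp gate and 26.9%, 6.66% and 7.17% in the Ifitm5 gate, against 1.63% and 0.483% in the Ptprc gate. Before thinning the shares were 75.8%, 72.4% and 65.1% in the Ibsp gate and 60.6%, 29.0% and 18.1% in the Ifitm5 gate.

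Spock2 had 63.1 and 41.5 CPM in the Pappa2 gate and 35.5, 42.2 and 48.0 CPM in the Hand2 gate. The Ibsp gate had 27.5, 17.0 and 25.2 CPM and the Ifitm5 gate 28.0, 14.7 and 14.2 CPM. Cells in no gate held 55.2, 27.7 and 48.8 CPM, above the Hand2 gate at P15 and below it at P25. The Hand2 gate exceeded the Ibsp and Ifitm5 gates in each library, although its difference from the other 4 gates, 0.68 ± 0.21 on the log2 scale, was not called (edgeR adjusted p = 0.107). Spock3 was at or near 0 in the gates. It was at 0 to 0.257 CPM in all gate sums used except the Pappa2 gate at P25, where a single UMI gave 1.54 CPM. Cells in no gate held 0.727, 0.312 and 1.51 CPM of Spock3. In the Hand2 gate no UMI was found in 238, 682 and 485 cells, which allows levels of up to 0.634, 0.248 and 0.543 CPM (3 counts) at P15, P25 and 8 weeks. In the 14 Pappa2-gated cells of 8 weeks, too few for a sum, 5 UMIs of Spock3 were found in 3 cells.

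The genes whose pattern was most like that of a member were sought over the 17 sums of all gates, among 5809 genes with at least 50 CPM in at least 1 sum, by Pearson's r of log2(CPM + 10). The sums of a library share its pool of cells and its depth, and gates of a compartment resemble each other, so these values describe the sums and carry no test. Sparc was most like the type I collagen genes Col1a2 (r = 0.992) and Col1a1 (0.991), then Fkbp7 (0.975). Spock1 was most like Lef1 (0.937), a transcription factor of the Wnt pathway, Rspo1 (0.882), a secreted enhancer of Wnt signaling, and Atxn10 (0.881). Sparcl1 was most like Rheb (0.965), Ptprg (0.942) and C1qtnf7 (0.929), and Fstl1 most like Arhgef25 (0.984), Ndn (0.978) and Dact1 (0.964). Smoc2 was most like Phf10 (0.895), Mcc (0.894) and Megf6 (0.889), and Spock2 most like Aak1 (0.951), Grb10 (0.949) and Cybrd1 (0.947). Between members r was highest for Fstl1 and Spock2 (0.86) and lowest for Sparcl1 and Smoc2 (-0.23).

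Collagens that SPARC is known to bind differed in both directions in the Ifitm5 gate. Against the other 4 gates 2 of 8 were called higher by edgeR and 3 lower, where 4.31% of all genes were called higher and 3.47% lower, with a list median of 0.45 on the log2 scale against 0.00 over all genes. Col1a1 (2.10, adjusted p = 0.00497) and Col1a2 (1.91, adjusted p = 0.00961) were higher, and the basement membrane collagens Col4a1 (-3.38, adjusted p = 0.0120) and Col4a2 (-2.89, adjusted p = 0.00769) were the lowest. Against the Ibsp gate, where 0.771% of all genes were lower, 1 of 8 was lower, the fibrillar collagen Col3a1 (-1.53, adjusted p = 0.00731), with a list median of 0.62 against -0.03. Col3a1 was the 1 of 8 called higher in the Pappa2 gate (1.68, edgeR adjusted p = 0.00356; list median 0.78 against 0.01), as were 0.578% of all genes. In the Ibsp and Hand2 gates 0 of 8 were called, with list medians of -0.31 and -0.24 against 0.02 and 0.03.

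Among 8 other genes with a follistatin domain, 7 were tested. In the Ifitm5 gate against the other 4 gates Fstl4 was called higher by edgeR (2.41, adjusted p = 0.00923) and Igfbp7, an insulin-like growth factor binding protein, lower (-1.49, adjusted p = 0.0398), with a list median of -0.97 and the same 4.31% and 3.47% of all genes called. Tmeff1 was the 1 called higher in the Hand2 gate (1.24, edgeR adjusted p = 0.0283), against 1.27% of all genes, with a list median of -0.61. In the Ifitm5 gate against Ibsp and in the Ibsp and Pappa2 gates 0 of 7 were called, with medians of -0.62, 0.05 and 0.10. Of 15 known partners, targets and proteases of the family, all were tested. Mmp16, a membrane-type matrix metalloprotease, was called higher in the Ifitm5 gate against Ibsp (2.29, edgeR adjusted p = 0.00908) and against the other 4 gates (2.30, adjusted p = 0.000704). Adamts4, an aggrecanase, was called lower in the latter (-1.46, edgeR adjusted p = 0.00635). Of all genes, 1.47% were called higher against Ibsp, and 4.31% higher and 3.47% lower against the other 4 gates. The medians of this list were -0.35 and -0.51 in these comparisons. In the Ibsp, Pappa2 and Hand2 gates 0 of 15 were called, with medians of -0.13, 0.61 and -0.03.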

How the data were processed

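Pthrp-mCherry-positive cells from mandibular molars were profiled by 10x Chromium 3' (v3.1) sequencing, with 1 library each at P15, P25 and 8 weeks. The authors deposited whole-number UMI counts per gene and cell, without normalization. The submitters' processing notes name Cell Ranger 6.1.2 and mm10, whereas the P25 file header names 6.0.1. That library lists 32293 features and the others 22056, and 21446 genes shared by identifier were used (20781 by symbol). Positions came from GENCODE M21 on GRCm38. The members, gates and lists were chosen with earlier results of these data known. The markers of the cementoblast subtypes, the precursors and the periapical cells were drawn by the study from these libraries.

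All 27089 cells entered, and no doublet caller was run: cells passing gates of several compartments (79, 44 and 3 at P15, P25 and 8 weeks) were left out. The UMI minimums were 10 for Ibsp, Rgs5 and Krt14, 3 for Ifitm5 and Pappa2, and 2 for Hand2 and Ptprc. Summed UMIs were tested with edgeR 4.0.16 (TMM, filterByExpr, robust quasi-likelihood fit, Benjamini-Hochberg adjustment) in R 4.3.3, and DESeq2 1.42.0 was an alternative. The scripts were tested on simulated data. Libraries are the replicates of a gate, each from 1 pool of cells, so p-values measure the spread between them. Gates of a library come from the same pool, and same-library deviations from the gate means correlated at 0.332 to 0.606 over genes, so the library pairs the sums. A comparison planned for the Rgs5 gate was not tested, since 1 sum was left. Ratios between ages carry exact conditional 95% intervals, and shares Clopper-Pearson intervals. UMIs guard against PCR duplicates, and intervals cover counting error only. The genes named are the members, the 3 genes most like each, and the list genes called with the 2 largest changes in each direction. Python 3.11.15, numpy 2.4.6, scipy 1.17.1, pandas 2.3.3 and matplotlib 3.10.9 were used.

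Alternatives changed the UMI minimums, the treatment of cells passing several gates, the cells kept, the depth, the normalization, the test, the low-count filter, the samples in the fit, the block, the threshold on size, the join of genes and each library left out. A minimum of 10 cells per sum, 1 marker share for all libraries, a fit without the Rgs5 and Pappa2 sums, and time courses without cells of several stromal gates were added after the data were seen.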

Additional observations from a re-analysis of the deposited data

Results flagged for a closer look

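Sparc differed from its P15 level in opposite directions in different gates. Its level at 8 weeks was 2.05 times that of P15 in the Ifitm5 gate, 0.468 times in the Ibsp gate and 0.248 times in the Krt14 gate. From P25 to 8 weeks the ratio was below 1 in both the Ifitm5 gate (0.690) and the Ibsp gate (0.753). The difference between the gates was not tested, since each age had 1 library. The summed Krt14 levels were below those of the immune gate at P15 and P25, although the P15 median per cell was above. Medians per cell in the Krt14 gate were 712, 285 and 392 CPM at P15, P25 and 8 weeks. By the median, 8 weeks was thus above P25 and not past 0.5 times P15.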

How the results depend on the processing

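With the library as a replicate block, the number of members called was 1 in the Ifitm5 gate against Ibsp (0 without the block) and 2 in the Pappa2 gate (0 without), and the block ended none of the 4 calls made without it. The pairing moved no other count of members by over 1.5 times. Over all genes the block raised the calls as well. Against Ibsp they numbered 658 with the block and 302 without, in the Ibsp gate 330 and 158, and in the Ifitm5 gate 1379 and 1050. In the Pappa2 gate they numbered 195 and 98, and in the Hand2 gate 559 and 363. Calls depended on single libraries: with 1 library left out, 0 to 2 members were called in the Ifitm5 gate against Ibsp, 0 to 1 in the Ibsp gate, 0 to 2 in the Ifitm5 gate, 0 to 1 in the Hand2 gate, and 1 in the Pappa2 gate without 8 weeks, its only testable case. Calls over all genes fell without P25 and without 8 weeks in every comparison that could be fitted. Without P15 they fell in the Hand2 gate and rose in the other comparisons fitted. Against Ibsp they numbered 302, and 725, 0 and 7 without P15, P25 and 8 weeks. In the same order they numbered 158, and 159, 5 and 12, in the Ibsp gate, 1050, and 1172, 100 and 531, in the Ifitm5 gate, and 363, and 233, 1 and 29, in the Hand2 gate, and in the Pappa2 gate 98, and 35 without 8 weeks. Without P25 no member was called in any comparison that could be fitted, and few genes were, so this says little of the members. Against Ibsp, 1 member was called with doubled minimums and with 1 marker share, and 2 with DESeq2 and with cells of several stromal gates left out. Over all genes these settings called 391, 428, 590 and 874 in that order, against 302. In the Ibsp gate 0 were called with lower minimums and without the Rgs5 and Pappa2 sums, where 215 and 24 of all genes were, against 158. For Ifitm5 1 was called with doubled minimums, with cells kept in every gate and with no filter, and 4 with cells of several stromal gates left out and with at least 10 cells per sum. All genes gave 1019, 815, 984, 1305 and 963 calls in that order, against 1050. For Pappa2 1 was called with cells kept in every gate, with cells of several stromal gates left out, without the 6% of cells with the most UMIs, with at least 10 cells and with 1 marker share, 2 with thinned sums and 4 with DESeq2. The calls over all genes were 108, 96, 141, 148, 122, 109 and 302 in that order, against 98. For Hand2 0 were called with lower minimums, cells kept in every gate, thinned sums and at least 10 cells, and 2 with cells of several stromal gates left out. Here all genes gave 162, 233, 171, 372 and 454 calls in that order, against 363. Spock1, at 0.55 on the log2 scale in the Ifitm5 gate against the others, was at -0.26 with lower minimums, -1.02 (called) with cells of several stromal gates left out, -0.92 without the Rgs5 and Pappa2 sums and -0.85 to 0.85 with 1 library left out. Its value in the Hand2 gate was -0.46 without the Rgs5 and Pappa2 sums. With 1 marker share, 1 member in place of 2 was past the fold of the time course in the Ibsp gate and in the Ifitm5 gate. The Ibsp gate also had 1 in place of 2 with cells of several stromal gates left out. Shares of all genes past the fold in these settings are not given here, so these counts are not read as a result about the members. The causes of these differences were not tested. A Pappa2 comparison without P15 or P25 or with doubled minimums could not be fitted, and the Rgs5 comparison was not run. Depth and cell number limit Smoc1, Spock3 and the Pappa2, Rgs5 and Ptprc gates at later ages.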
